A study of Bos taurus with 13 samples.

Results

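*PLA2G4A*, *ALOX5*, *ALOX5AP*, *LTA4H*, *PTGS1*, *PTGS2*, *PTGES* and *TBXAS1* encode enzymes, and 1 helper protein, that make leukotrienes, prostaglandins and thromboxane, and they were taken by name from the count tables of bovine whole blood. All 8 had an entry among the 16095 named genes, and all 8 passed edgeR's filter on low counts, as did 11033 genes in all. The study sequenced blood RNA of dairy cows ranked by the cortisol in their milk, a record of circulating cortisol, to compare the upper with the lower end of that ranking. Count tables of 13 cows were used, 7 with high milk cortisol (replicates 1 to 7) and 6 with low milk cortisol (replicates 8 to 13). Both groups were clinically healthy lactating cows of 1 commercial farm and 1 breed, labelled Italian Red Pied and called Italian Simmental in the methods, with no treatment, sampled at the tail vein after milking. The age of each cow is not given in the sources used here, and the groups are the ends of a natural ranking and not an experimental exposure.

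Eicosanoids are signalling lipids made from arachidonic acid on demand and are not stored. Cytosolic phospholipase A2 (*PLA2G4A*) frees arachidonic acid from membranes. In granulocytes and monocytes, 5-lipoxygenase (*ALOX5*), with its helper protein FLAP (*ALOX5AP*), turns it into leukotriene A4, and leukotriene A4 hydrolase (*LTA4H*) completes leukotriene B4, a strong attractant of neutrophils. The cyclooxygenases, COX-1 (*PTGS1*, largely constitutive and typical of platelets) and COX-2 (*PTGS2*, inducible and repressed by glucocorticoids), make prostaglandin H2, which microsomal prostaglandin E synthase 1 (*PTGES*) and thromboxane synthase (*TBXAS1*) convert to prostaglandin E2 and thromboxane A2.

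Named genes held 12198355 to 23709740 counts per cow in the high group and 11045599 to 28124575 in the low group. Levels are given as CPM, the counts of a gene relative to the TMM-scaled total of its library, and a count of 0 allows a level of up to 3 counts, or 0.107 to 0.272 CPM at these depths, for counting error only. The blood label was checked against marker lists, and no marker with an entry was at 0 in all cows. The summed level of 3 neutrophil markers (*CSF3R*, *MMP9* and *MGAM*, of 7 listed) ran from 2142 to 4732 CPM in the high group and from 3079 to 6171 CPM in the low group. Nearly all of it was *CSF3R*, with 2108 to 6101 CPM over all cows, beside 14.3 to 47.7 for *MMP9* and 3.98 to 22.1 for *MGAM*. The erythroid score (*HBB*, *HBM* and *ALAS2*, of 7 listed), a mean of centred log2 CPM, was 0.71 ± 1.44 (SD) in the high group and -0.83 ± 0.35 in the low group, and it differed by an exact two-sided permutation test (p = 0.0181, unadjusted). The haemoglobin share, here and as a covariate, is that of *HBB*, *HBG*, *HBM* and *HBQ1* in the named counts, and *HBA* had no entry. It ran from 0.0114% to 0.815%, highest in high replicate 7. The Pearson r of its log2 with log2 CPM of the 8 genes was between -0.48 and 0.19.

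Among the 8 genes, those of thromboxane and leukotriene synthesis had the highest transcript levels, and both cyclooxygenases and *PTGES* the lowest. Per kilobase of exon, *ALOX5AP* had a mean level of 192 CPM per kb ± 66.9 (SD, 13 cows), higher than 95.6% of the genes tested. *TBXAS1* followed with 62.5 CPM per kb ± 14.5, and *LTA4H* with 53.0 ± 7.85. *ALOX5* had 27.1 CPM per kb ± 23.4, and *PLA2G4A* 7.39 ± 2.61. The levels of *PTGS1* (1.52 CPM per kb ± 0.421), *PTGS2* (0.890 ± 0.734) and *PTGES* (0.705 ± 0.309) were higher than those of only 13.8%, 8.69% and 6.67% of the genes tested.

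Within cows, the order was firm at some steps and open at others. *ALOX5AP* exceeded *TBXAS1* in 13 of 13 cows with no overlap of their ranges, as did *PLA2G4A* against *PTGS1*. *TBXAS1* exceeded *LTA4H* in 11 of 13 cows, *LTA4H* exceeded *ALOX5* in 12 of 13, and *ALOX5* exceeded *PLA2G4A* in 13 of 13, each with overlapping ranges. At the lower end *PTGS1* exceeded *PTGS2* in 10 of 13 cows and *PTGS2* exceeded *PTGES* in 7 of 13, so *PTGS2* and *PTGES* were not separated in level. The plot of levels by cow shows that the spread of a gene within a group was wide for *ALOX5* and *PTGS2* and narrow for *LTA4H*.

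**Figure D1:**
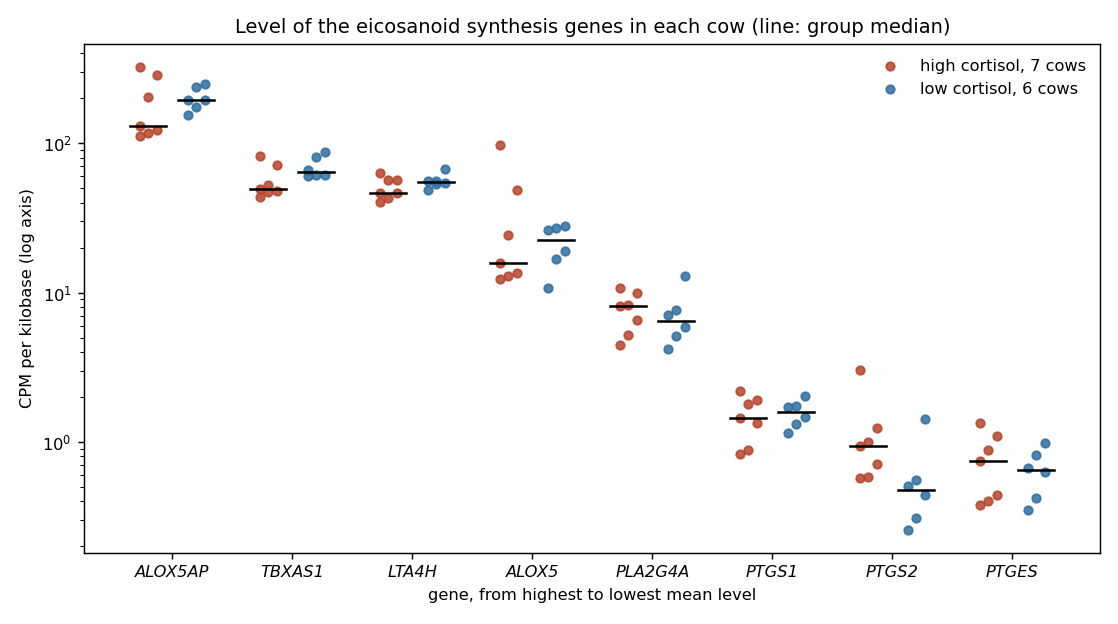
Level of each gene in each cow, in CPM per kilobase on a log axis, with genes ordered by mean level, red points for the 7 cows of the high group, blue points for the 6 of the low group, and a black line at each group median. The ranges of both groups overlap for all 8 genes, and the top points of *ALOX5* (97.3, high replicate 3) and *PTGS2* (3.04, high replicate 4) lie apart from the rest.

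The relation between partner enzymes also varied from cow to cow. The ratio of *ALOX5AP* to *ALOX5*, per kilobase, ran from 2.94 (high replicate 3) to 15.7 (high replicate 5) with a median of 8.66, so the transcript of the helper protein exceeded that of the lipoxygenase in 13 of 13 cows. The ratio of *PTGS1* to *PTGS2* had a median of 2.68 and ran from 0.274 in high replicate 4 to 7.90 in low replicate 12. COX-2 transcripts thus exceeded COX-1 transcripts in 3 cows, high replicates 2 and 4 and low replicate 10. *LTA4H*, at the branch to leukotriene B4, exceeded *LTC4S*, the synthase at the branch to cysteinyl leukotrienes, by 2.19 to 6.90 times.

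Between the cortisol groups, edgeR's quasi-likelihood test called 0 of the 8 genes at an adjusted p of 0.05, beside 0 of all 11033 genes tested (0.0%). At an unadjusted p below 0.05, 1 of the 8 was counted, *PTGS2*, against 231 of all genes (2.09%), of which 0.934% were higher and 1.16% lower in the high group. The groups overlapped in CPM for all 8 genes, whereas 0.0272% of all genes had groups that did not overlap. The fitted log2 fold change was positive for 4 of the 8 and negative for 4, with a median of 0.01, and the median over all genes tested was also 0.01. Lower cell numbers and less RNA per cell cannot be told apart in whole blood, and this holds for every value that follows.

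*PLA2G4A*, on chromosome 16 of UMD3.1 from 69443238 to 69620712 (plus strand, 2863 bases of exon), opens the pathway. Its level ran from 12.8 to 30.5 CPM in the high group (median 23.4) and from 12.0 to 37.2 CPM in the low group (median 18.6). The low group held both the highest cow (replicate 9) and the lowest (replicate 13), and the groups overlapped over most of their range. The log2 fold change was 0.08 (standard error 0.25), and an exact two-sided permutation test gave p = 0.674. Without high replicate 3 it was -0.01 and without low replicate 13 it was -0.03, so it had no firm sign.

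*ALOX5*, on chromosome 28 from 44729723 to 44776997 (minus strand, 2624 bases of exon), was among the most variable genes of this blood. It ran from 32.4 to 255 CPM in the high group (median 41.5) and from 28.0 to 72.9 CPM in the low group (median 59.5). High replicates 3 (255 CPM) and 2 (128 CPM) stood above all other cows, while 4 of the 7 high cows lay below the low median. Group means were 84.3 CPM ± 82.6 (SD, n = 7) for high and 55.9 CPM ± 18.1 (SD, n = 6) for low cortisol. The standard deviation of log2 CPM over the cows was 0.89, above that of 97.0% of the genes tested. The log2 fold change was 0.59 (standard error 0.48), with an exact permutation p of 0.690. Without high replicate 3 the log2 fold change was -0.01, so the positive estimate rested on that cow. With the neutrophil score in the model it was 0.91 (unadjusted p 0.0287 in edgeR's fit), and limma-voom gave 0.16.

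*ALOX5AP*, on chromosome 12 from 30136998 to 30159808 (minus strand, 789 bases of exon), ran from 87.7 to 255 CPM in the high group (median 102) and from 122 to 195 CPM in the low group (median 154). The same cows as for *ALOX5* were at the top, high replicate 2 with 255 CPM and high replicate 3 with 225 CPM. All 6 low cows nevertheless lay above the high median, and 4 of 7 high cows lay below the low median. High against low, the log2 fold change was -0.12 (standard error 0.25, exact permutation p 0.420). It was -0.31 without high replicate 2 and -0.26 without high replicate 3.

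*LTA4H*, on chromosome 5 from 60647973 to 60678518 (minus strand, 2063 bases of exon), varied least of the 8. It ran from 83.2 to 130 CPM in the high group (median 95.6) and from 100 to 139 CPM in the low group (median 114). Over all cows the highest level was 1.67 times the lowest, and the standard deviation of log2 CPM was 0.22. The groups differed by a log2 fold change of -0.16 (standard error 0.12, exact permutation p 0.182), and all 6 low cows lay above the high median.

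*PTGS1*, on chromosome 11 from 93219287 to 93245045 (plus strand, 2607 bases of exon), was measured with 34 to 116 counts per cow. It ran from 2.17 to 5.75 CPM in the high group (median 3.76) and from 2.99 to 5.32 CPM in the low group (median 4.15). High replicates 4 (2.17 CPM) and 2 (2.32 CPM) were lowest, and high replicate 6 was highest. The fitted log2 fold change was -0.07 (standard error 0.25, exact permutation p 0.596), and it was 0.03 without high replicate 4.

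*PTGS2*, on chromosome 16 from 69263776 to 69271399 (minus strand, 3489 bases of exon), had the largest difference between the groups among the 8. It lies 171838 bases from *PLA2G4A*, with 0 named genes between them. It ran from 1.99 to 10.6 CPM in the high group (median 3.25) and from 0.902 to 4.95 CPM in the low group (median 1.65). All 7 high cows lay above the low median, but low replicate 10 (4.95 CPM) exceeded every high cow except replicate 4 (10.6 CPM). High cows averaged 4.02 CPM ± 3.02 (SD, n = 7) and low cows 2.03 CPM ± 1.49 (SD, n = 6).

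The log2 fold change of *PTGS2* was 0.98 (standard error 0.45), a fold of 1.97, with an edgeR unadjusted p = 0.0459, rank 202 of 11033 genes, and an adjusted p = 0.998. The exact two-sided permutation test gave p = 0.0624, where the smallest it can give over 1716 splits of the cows is 5.8e-04. Without high replicate 4 the log2 fold change was 0.52 and without low replicate 10 it was 1.45, so single cows moved it by more than its standard error. With 1 cow left out, the unadjusted p of *PTGS2* was below 0.05 in 4 of 13 fits. With the eosinophil score in edgeR's fit the log2 fold change was 0.97 (unadjusted p 0.0578), and with the neutrophil score 1.03 (0.063). With the haemoglobin share it was 1.31 (standard error 0.58, unadjusted p 0.0381 in edgeR's fit). The estimate rests on 10 to 166 counts per cow. The mast cell and basophil score (*FCER1A*, *MS4A2*, *KIT*, *CPA3* and *GATA2*, of 6 listed) was 0.18 ± 0.26 (SD) in the high group and -0.21 ± 0.37 in the low group, with an exact permutation p of 0.0507. Its summed level ran from 37.9 to 63.2 CPM in the high group and from 27.1 to 43.3 CPM in the low group, and its part in the *PTGS2* difference was not tested. *PTGS2* is also in the list of differentially expressed genes that the study drew from its cows, these 13 among them, and its direction here is therefore not independent evidence.

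*PTGES*, on chromosome 11 from 100143653 to 100155090 (minus strand, 855 bases of exon), was close to the limit of detection, with 4 to 23 counts per cow. It ran from 0.323 to 1.14 CPM in the high group (median 0.639) and from 0.300 to 0.843 CPM in the low group (median 0.558). The standard deviation of log2 CPM over the cows, with its prior count of 2, was 0.53. Counting error alone gives 0.49 at these depths, but computed without a prior count, so the 2 values cannot be set against each other. The spread between cows of a group beyond counting error, as edgeR's biological coefficient of variation, was estimated at 37%, in part from other genes. Its log2 fold change was 0.16 (standard error 0.38, exact permutation p 0.659).

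*TBXAS1*, on chromosome 4 from 104133819 to 104307005 (plus strand, 1896 bases of exon), ran from 82.9 to 155 CPM in the high group (median 93.5) and from 115 to 166 CPM in the low group (median 121). In the high group 5 of 7 cows lay below every low cow, and replicates 2 (155 CPM) and 3 (137 CPM) lay within the low range. High cows averaged 107 CPM ± 27.5 (SD, n = 7) and low cows 132 CPM ± 22.2 (SD, n = 6). On the log2 scale the difference was -0.30 (standard error 0.15), with an edgeR unadjusted p of 0.0674, an adjusted p = 0.998 and an exact permutation p of 0.0758.

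The difference of *TBXAS1* moved with single cows and with the covariates tried. Its log2 fold change was -0.41 without high replicate 2 (unadjusted p 0.00887 in edgeR's fit) and -0.37 without high replicate 3 (unadjusted p 0.0304 in edgeR's fit). With the neutrophil score of each cow in the model it was -0.12 (unadjusted p 0.36 in edgeR's fit), and with the haemoglobin share it was -0.18 (0.388). The eosinophil score moved it the other way, to -0.42 (unadjusted p 0.00664 in edgeR's fit). The neutrophil score was -0.20 ± 0.52 (SD) in the high group and 0.23 ± 0.39 in the low group, with an exact permutation p of 0.126. *TBXAS1* is also among the genes that the study listed as differentially methylated in CD4+ cells, whose methylation was not analysed here.

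**Figure D2:**
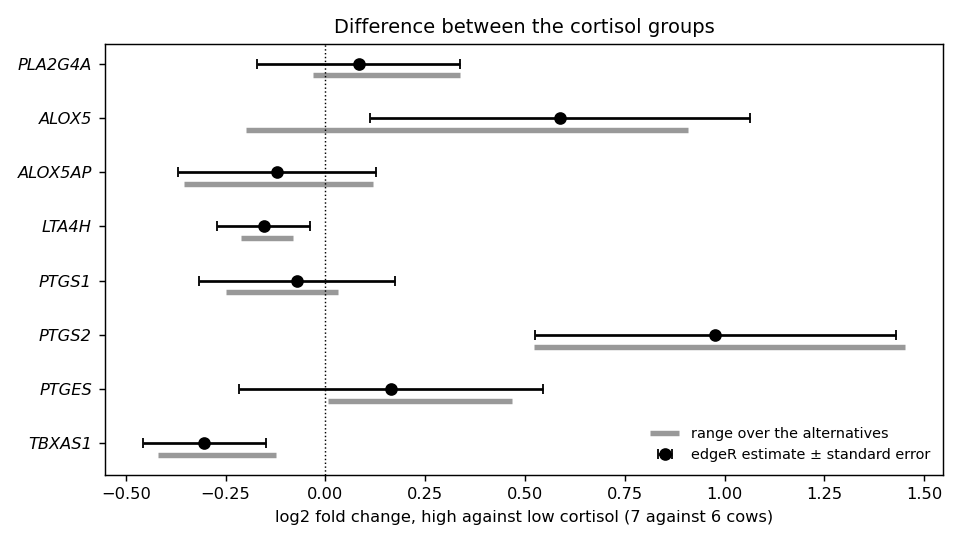
Log2 fold change of each gene, high against low cortisol, as the edgeR estimate with its standard error (black) and the range over the alternative settings (grey), which include leaving out each cow. For *PTGES* the range lacks the fits without high replicate 1, 2, 3 or 4, where it did not pass the filter. The dotted line marks 0, and the alternatives fall on both sides of it for *PLA2G4A*, *ALOX5*, *ALOX5AP* and *PTGS1*.

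Across cows, the 8 genes as a group varied together little more often than other genes did. Of 28 pairs, 3 had an absolute Pearson r of 0.7 or more on log2 CPM (10.7%), a share near the 8.45% of all pairs of genes tested. The median absolute r was 0.35, with 16 positive and 12 negative pairs, and 2 pairs passed an adjusted p of 0.05 over the 28 (permutation test, 100000 resamples). By Spearman's rho no pair passed, and the lowest adjusted p was 0.0574 by the same permutation test.

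*ALOX5AP* and *TBXAS1* had r = 0.83 over 13 cows (rho = 0.78, permutation p = 8.1e-04, adjusted p = 0.0227). Without the 2 cows farthest from the median of *ALOX5AP*, r was 0.74, and it was 0.96 within the high group and 0.41 within the low group. *ALOX5* and *ALOX5AP*, partners in 1 reaction, had r = 0.74 (rho = 0.76, permutation p = 0.00227, adjusted p = 0.0318). High replicates 2 and 3 were the top cows of both genes, and without them r was 0.57. Within the high group r was 0.79, and within the low group, which holds neither of those cows, it was 0.88.

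*PTGS1* and *PTGS2* varied in opposite directions, with r = -0.71 (permutation p = 0.00642, adjusted p = 0.0599) and rho = -0.50 (permutation p = 0.0858). The relation was -0.80 within the high group and -0.71 within the low group. High replicates 4 and 2 had the highest *PTGS2* of the high group and the lowest *PTGS1* of all cows. Without them r was -0.39, so the size of the pooled value depended on those cows. The low group, which holds neither of them, had r = -0.71 over its 6 cows. The inducible *PTGS2* and the final enzyme *PTGES*, which act in sequence, had r = 0.40 (rho = 0.39, permutation p = 0.181, adjusted p = 0.39). *PLA2G4A* and its chromosomal neighbour *PTGS2* had r = 0.48 (rho = 0.47, permutation p = 0.0973, adjusted p = 0.314).

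Each gene was set beside 9 lists of blood cell markers, and 1 of the 72 relations passed an adjusted p of 0.05 by permutation, *ALOX5* with the eosinophil score. That score holds *CCR3* and *IL5RA*, the receptors for eotaxin and interleukin 5 and the only members of a list of 7 that passed the filter, with a summed level of 84.1 to 349 CPM in the high group and 65.0 to 227 CPM in the low group. Pearson r was 0.91 (rho = 0.86, permutation p = 3e-05, adjusted p = 0.00216), 0.99 within the high group and 0.84 within the low group. Without high replicate 3, which had the highest value of both, r was 0.83, and without the 2 cows farthest from the median score it was 0.88. With the eosinophil score in the model, the log2 fold change of *ALOX5* between the cortisol groups was -0.20 (unadjusted p 0.329 in edgeR's fit). The part of eosinophil number in these values was not tested.

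None of the other relations passed the adjusted threshold. *TBXAS1* had r = 0.77 with the neutrophil score (rho = 0.78, permutation p = 0.00207, adjusted p = 0.0745), and 0.65 without the 2 farthest cows. *ALOX5AP* had r = 0.65 with the neutrophil score (rho = 0.69, permutation p = 0.0178, adjusted p = 0.256) and 0.68 with the eosinophil score (rho = 0.65, permutation p = 0.00972, adjusted p = 0.205). *PTGS1* had its highest r, 0.63, with the platelet score of *PPBP*, *GP9*, *ITGA2B*, *GP1BA* and *TUBB1*, 5 of 8 listed (rho = 0.69, permutation p = 0.0219, adjusted p = 0.256). With these markers singly, r ran from 0.31 for *TUBB1* (rho = 0.14) to 0.64 for *GP9*. Their summed level ran from 212 to 474 CPM in the high group and from 239 to 546 CPM in the low group.

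*PLA2G4A* had r = 0.67 with the mast cell and basophil score (rho = 0.70, permutation p = 0.0114, adjusted p = 0.205) and 0.61 with the monocyte score (rho = 0.60, permutation p = 0.0249, adjusted p = 0.256). With the eosinophil score it had r = 0.58 (rho = 0.54, permutation p = 0.0373, adjusted p = 0.268), and 0.21 without the 2 farthest cows. Within the monocyte list it followed lysozyme, *LYZ* (r = 0.92), and not *CSF1R* (r = -0.02) or *CD68* (r = -0.32), so the list did not move with it as a whole. *PTGS2* had its highest r, 0.59, with the mast cell and basophil score (rho = 0.49, permutation p = 0.0333, adjusted p = 0.268), and r was 0.43 without high replicate 4. It had r = -0.57 with the T cell score (rho = -0.48, permutation p = 0.0432, adjusted p = 0.283) and 0.58 with the cytotoxic and NK score (rho = 0.74, permutation p = 0.0373, adjusted p = 0.268). The relation with the cytotoxic and NK score was 0.11 within the high group. Within the low group, where replicate 10 was highest in both, it was 0.89. *LTA4H* had at most 0.56 in size, with the neutrophil score, and *PTGES* at most 0.46, with the monocyte score.

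**Figure D3:**
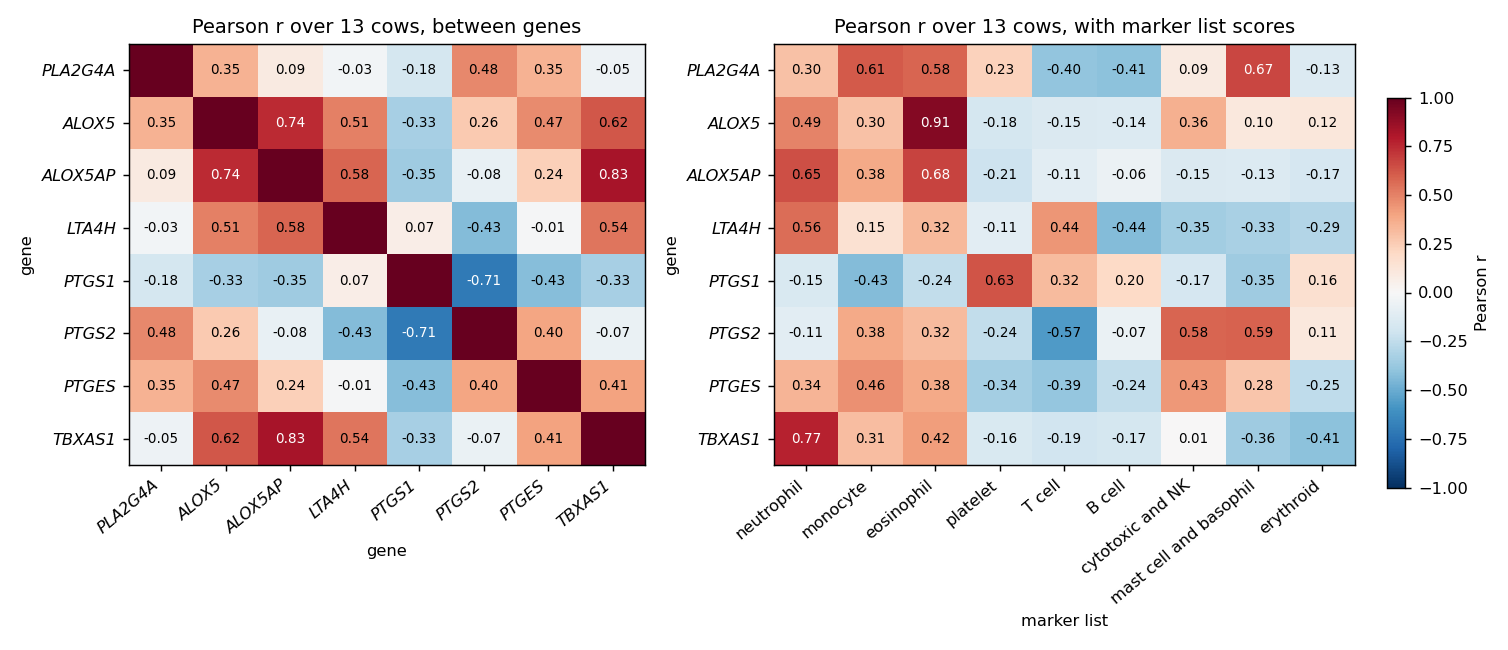
Pearson r over 13 cows of log2 CPM between the 8 genes (left) and with the scores of 9 blood cell marker lists (right), from blue (-1) to red (1), each value printed in its cell. The strongest cells are *ALOX5* with the eosinophil list (0.91), *ALOX5AP* with *TBXAS1* (0.83) and *TBXAS1* with the neutrophil list (0.77), and the most negative is *PTGS1* with *PTGS2* (-0.71).

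**Figure D4:**
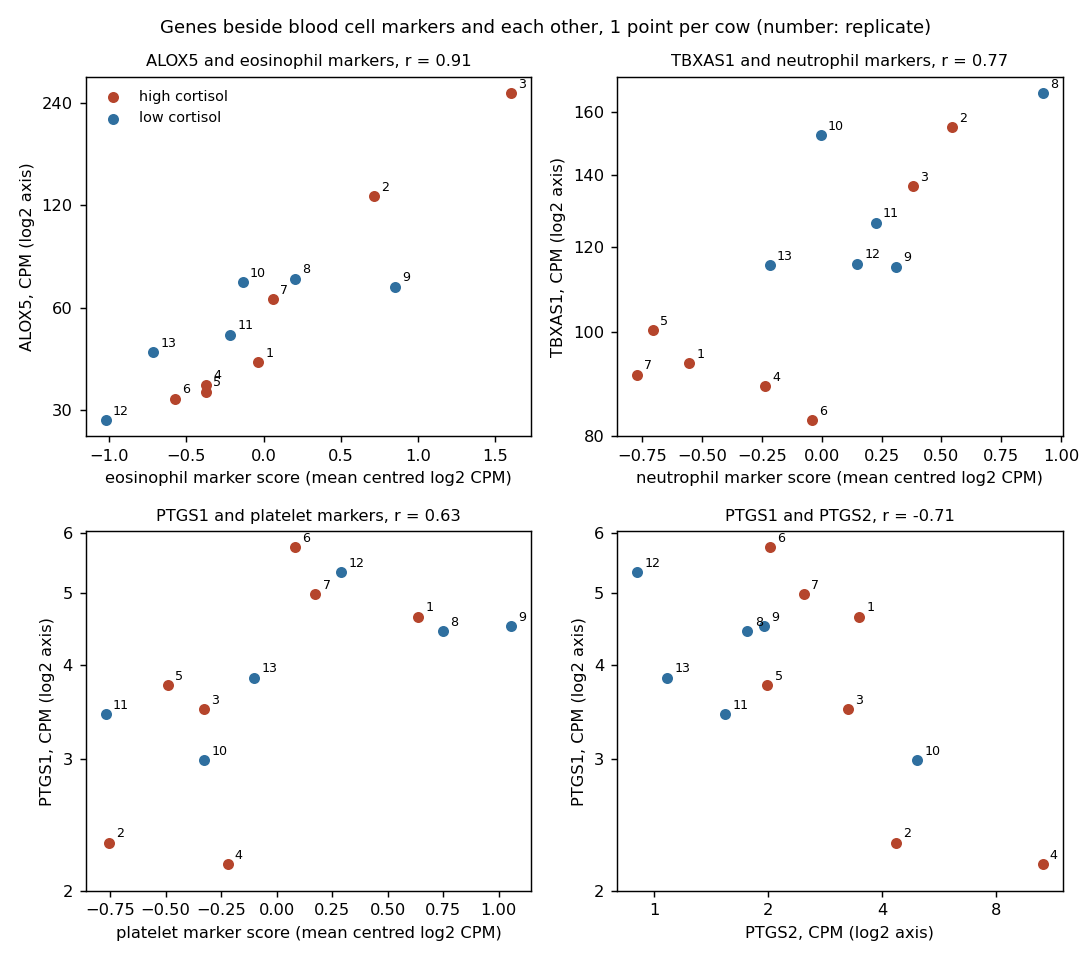
CPM of *ALOX5*, *TBXAS1* and *PTGS1* (log2 axes) against the eosinophil, neutrophil and platelet marker scores and of *PTGS1* against *PTGS2*, with 1 point per cow, red for the high and blue for the low group, and the replicate number beside it. High replicate 3 is at the top right of the eosinophil panel (255 CPM), and high replicate 4 at the bottom right of the *PTGS2* panel.

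The 3 genes whose log2 CPM was most like that of each enzyme were named by Pearson r over 13 cows, among all other genes tested. These values describe libraries that share depth and cell makeup and carry no test. Nearest to *ALOX5* were *CEBPE* (r = 0.96), a transcription factor of late granulocyte maturation, *ALOX15* (r = 0.96), the 15-lipoxygenase, and *GPR4* (r = 0.95), a proton-sensing receptor. *ALOX15* ran from 108 to 802 CPM, highest in high replicate 3 like *ALOX5*, and per kilobase it was 2.68 to 4.94 times *ALOX5*. Without that cow r was 0.93 for *CEBPE*, 0.93 for *ALOX15* and 0.94 for *GPR4*.

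*ALOX5AP* was nearest to *PDK3* (r = 0.93), a pyruvate dehydrogenase kinase, *IL17RB* (r = 0.92), a receptor subunit for interleukin 25, and *CDC42SE1* (r = 0.92). *TBXAS1* shared *PDK3* (r = 0.91) with it and had *B4GALT1* (r = 0.92), a galactosyltransferase, and *SMAP2* (r = 0.92) above it. *LTA4H* was nearest to *RPS6KA2* (r = 0.85), a kinase of the ERK pathway, *RARG* (r = 0.84), a retinoic acid receptor, and *ARRB2* (r = 0.83), an arrestin. *PLA2G4A* was nearest to *CYB5R4*, *CCDC112* and *N4BP2L1*, each with r = 0.92.

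The cyclooxygenases and *PTGES* had the fewest partners at r of 0.7 or more. For *PTGS1* (69 genes) and *PTGS2* (92) the number was not far below that of *LTA4H* (119) and *ALOX5* (134). *PTGS1* was nearest to *ZAN* (r = 0.89), *GSDMB* (r = 0.88), a gasdermin, and *SLC25A41* (r = 0.86), and *PTGS2* to *REV1* (r = 0.84), a DNA repair polymerase, *CCSER1* (r = 0.83) and *DCUN1D3* (r = 0.82). Without high replicate 4 the last 3 values were 0.71, 0.73 and 0.67. For *PTGES* only 7 genes reached r = 0.7 (0.0635% of those ranked), led by *C15orf48* (r = 0.81), against 814 genes (7.38%) for *PLA2G4A*. In counts as sparse as those of *PTGES* a correlation is limited by counting error.

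The wider pathway was described by a list of other genes. Of 61 other genes listed for it, 48 had an entry, 32 passed the filter on low counts, and 0 of the 32 were called, as were 0 of all genes tested. The 16 that did not pass include *PLA2G12B*, *ALOX15B* and *ALOX12B*, with 0 counts in 13 of 13 cows. At an unadjusted p below 0.05, 2 of the 32 were counted (6.25%), both lower in the high group, beside 2.09% of all genes. The fitted log2 fold change was positive for 15 of the 32 and negative for 17, with a median of -0.02. The 2 were *PLA2G4F*, a cytosolic phospholipase A2 of another gene, and *EPHX2*, the soluble epoxide hydrolase that breaks down epoxy fatty acids.

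*PLA2G4F* ran from 0.599 to 1.95 CPM in the high group (median 1.22) and from 1.32 to 2.83 CPM in the low group (median 2.77), with 13 to 75 counts per cow. All 7 high cows lay below the low median, and the groups overlapped. Its log2 fold change was -0.86 (standard error 0.28, edgeR unadjusted p 0.00744, exact permutation p 0.00932). *EPHX2* ran from 1.66 to 4.86 CPM in the high group (median 1.98) and from 2.04 to 8.07 CPM in the low group (median 5.06). All 7 high cows lay below the low median here too, and the log2 fold change was -0.94 (standard error 0.35, edgeR unadjusted p 0.0166, exact permutation p 0.0431). With the haemoglobin share in the model neither kept an unadjusted p below 0.05 (0.0616 and 0.0584 in edgeR's fit), nor did they with the neutrophil score (0.0575 and 0.065). The log2 fold changes with the haemoglobin share were -0.78 (standard error 0.39) for *PLA2G4F* and -1.03 (0.51) for *EPHX2*. Those with the neutrophil score were -0.62 (0.30) and -0.88 (0.44). With the neutrophil score, 3 other genes of the 32 had an unadjusted p below 0.05 in edgeR's fit. They were *HPGD* (log2 fold change 1.08), *PTGER4* (0.50) and *ALOX15* (0.86), all higher in the high group. Over all 11033 genes tested, 363 had an unadjusted p below 0.05 in that fit, against 231 without the covariate.

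By role, 6 phospholipase genes were tested, 3 with a positive and 3 with a negative fitted value, and the highest level was that of *PLA2G7* (79.8 CPM per kb ± 23.9, SD over 13 cows), which inactivates platelet-activating factor. The log2 fold changes were 0.09 (standard error 0.14) for *PLA2G12A*, -0.08 (0.11) for *PLA2G15* and 0.0036 (0.21) for *PLA2G7*. Of 7 other lipoxygenase and leukotriene genes, 3 were positive and 4 negative, led in level by *ALOX15* (94.0 CPM per kb ± 66.7), *MGST3* (59.4 ± 8.46) and *MGST2* (27.2 ± 7.32). Their log2 fold changes were 0.42 (0.44), 0.10 (0.12) and -0.11 (0.20), with standard errors in parentheses.

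Among 4 other prostaglandin synthase genes, *PTGES3*, the cytosolic prostaglandin E synthase and a co-chaperone of HSP90, had 176 CPM per kb ± 20.6 (SD), and per kilobase it was 123 to 532 times *PTGES*. The log2 fold change of *PTGES3* was -0.01 (standard error 0.11), that of *CBR3* was -0.05 (0.15) and that of *FAM213B* was 0.16 (0.15). The synthases of prostaglandin D2 (*PTGDS* and *HPGDS*) and of prostacyclin (*PTGIS*) did not pass the filter, with at most 36, 24 and 2 counts in a cow. Of 6 genes of breakdown and transport, *PTGR1* (66.6 CPM per kb ± 30.2), which inactivates leukotriene B4, had the highest level and a fitted log2 difference of -0.44 (standard error 0.40). For *EPHX1* and *ABCC1* it was -0.02 (0.13) and 0.06 (0.10).

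Of 9 receptor genes tested, 6 had a positive and 3 a negative fitted value, with a median log2 fold change of 0.13. The thromboxane receptor *TBXA2R* had the highest level (121 CPM per kb ± 26.1, SD over 13 cows), and in every cow it exceeded *TBXAS1* per kilobase, by 1.25 to 3.39 times. Its log2 fold change was -0.04 (standard error 0.16). The prostaglandin E2 receptor *PTGER4* (39.5 CPM per kb ± 10.3) had 0.22 (0.19) and the prostaglandin D2 receptor *PTGDR2* (11.3 CPM per kb ± 5.53), carried by eosinophils and basophils, had 0.35 (0.32). Both receptors were highest in high replicate 3, the cow with the highest *ALOX5*.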

How the data were processed

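RNA from whole blood in PAXgene tubes was sequenced without globin depletion. The authors deposited counts of reads per gene name, whole numbers without normalization. The file headers give featureCounts 1.4.6-p3 with the Ensembl release 88 annotation of UMD3.1, with no option for strand or read pairs and with an alignment from a folder named for goat, while the labels give cattle. In 13 of 13 tables the animal number in the header differs from that in the table's name, and groups were taken from the sample titles alone. The submitters' processing notes name STAR 2.7.3, Subread 1.6.5 and ARS-UCD1.2. Which applies to the counts is not settled here, and positions are those of the tables (UMD3.1). No other named gene overlapped the 8. The entry of unnamed genes (13.9% to 16.7% of counts) was left out.

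CPM and log2 CPM (TMM, prior count 2) were computed in edgeR 4.0.16 (R 4.3.3). Groups were compared by its robust quasi-likelihood test without covariates over genes passing filterByExpr (minimum count 10, total 15), with Benjamini-Hochberg adjustment. Standard errors of log2 fold changes were taken from the F statistic. Single values were compared by exact two-sided permutation over 1716 splits, and correlations by 100000 resamples, adjusted over 28 pairs or 72 relations. CPM per kb uses the exon length in the tables. A list score is the mean centred log2 CPM of its markers, and 1 listed marker is not reported here and was left out of its score. Scripts were tested on simulated data.

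The 8 genes and all lists were chosen with earlier results of these data known. Other genes named are, per role, the 3 with the highest CPM per kb, those with an unadjusted p below 0.05, and the 3 most like each of the 8. *LTC4S*, *PTGDS*, *HPGDS*, *PTGIS*, *HPGD*, *PLA2G12B*, *ALOX15B*, *ALOX12B* and the single monocyte and platelet markers were named after their values were seen. Alternatives were DESeq2 1.42.0, limma-voom (limma 3.58.1), RLE factors, library size only, other filters, haemoglobin genes left out, covariates, a fit that is not robust, and each cow left out. The eosinophil covariate was chosen after seeing the data. Listed genes without an entry were not analysed here, and no sequences are printed.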

Additional observations from a re-analysis of the deposited data

Results flagged for a closer look

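In 34 groups (8 genes and 9 marker lists in both cortisol groups), 4 held a cow far from the others of its group by Dixon's test. For normally distributed values chance flags about 1 in 20 groups. The genes were tested on CPM and not on log2 CPM, so this rate need not hold for them, and their flags depend on that scale. *ALOX5* was 255.3 CPM in high replicate 3, where the next cow of that group had 127.6 CPM. *PTGS2* was 10.6 CPM in high replicate 4, where the next had 4.347 CPM, and 4.954 CPM in low replicate 10, where the next had 1.953 CPM. The cytotoxic and NK score of low replicate 10 was 0.3661, where the next of that group had -0.0799. High replicate 3 also had the highest eosinophil score, and high replicate 4 the highest mast cell and basophil score and the lowest *PTGS1*. The part of cell numbers in these values was not tested.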

How the results depend on the processing

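No paired analysis was possible because the groups share no replicate numbers. None of the 8 genes and none of the 32 other pathway genes was called under the alternatives run. DESeq2 called 1 of 14346 genes, which is not among them, and gave 348 genes at an unadjusted p below 0.05. Of the 8, limma-voom gave 2 at an unadjusted p below 0.05 (*PTGS2* and *TBXAS1*), beside 218 of all 11033 genes. With 1 cow left out there were between 0 and 1 of the 8. That 1 was *TBXAS1* without high replicate 2 or 3 and *PTGS2* in 4 fits, and in 7 of the 13 fits there was none. It was *ALOX5* (0.91) with the neutrophil covariate and *TBXAS1* (-0.42) with the eosinophil covariate. Of the other pathway genes, 0 were counted with the haemoglobin covariate, 3 (others than *PLA2G4F* and *EPHX2*) with the neutrophil covariate and between 1 and 3 with 1 cow left out. With 1 cow left out between 1 and 4 pairs reached an absolute r of 0.7, with 1 pair without high replicate 2. The sign turned for *PLA2G4A* without high replicate 3 (-0.01) or low replicate 13 (-0.03), for *ALOX5* without high replicate 3 (-0.01) or with the eosinophil covariate (-0.20), for *ALOX5AP* with the neutrophil covariate (0.12), and for *PTGS1* without high replicate 2 (0.03), high replicate 4 (0.03) or low replicate 12 (0.01). With 1 cow left out these log2 fold changes ran from -0.032 to 0.34 for *PLA2G4A*, from -0.0052 to 0.73 for *ALOX5*, from -0.31 to -0.028 for *ALOX5AP* and from -0.19 to 0.030 for *PTGS1*. The cause was not tested. *LTA4H*, *PTGS2*, *TBXAS1*, *PLA2G4F* and *EPHX2* kept their sign in every fit. *PTGS2* ran from 0.52 to 1.45 and *TBXAS1* from -0.42 to -0.12. *PTGES* passed the filter in 19 of 24 alternatives and was positive in those. It gave no value with at least 10 counts required in every cow, nor without high replicate 1, 2, 3 or 4. These are the high cows with its highest levels, so a change of its sign without them could not be seen. Scaling by library size alone moved the median of all genes to 0.07 and the split of fitted values from 5885 higher and 5148 lower to 7528 and 3505, and left 4 of the 8 genes positive. Of all genes, 414 had an unadjusted p below 0.05 without a filter, and 120 with the haemoglobin covariate. There were 363 with the neutrophil covariate, 282 with the eosinophil covariate, and between 191 and 373 with 1 cow left out. Counts per cow limit *PTGES*, *PTGS2* and *PTGS1*.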
